A study of Mus musculus with 4 samples.

Results

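The genes of fatty acid oxidation, ketone body formation and the response to PPARalpha were followed in fetal mouse liver, collected on gestation day 17 from animals heterozygous for Sox17 and from wildtype animals. A list of 34 genes was drawn up by name. Each gene was represented by the brightest of the probe sets that the platform annotation gives to that gene alone, by mean signal over all arrays. Of the 34 genes, 32 had such a probe set. Cpt1b was named only by a probe set that names further genes, and Acsl1 was not analysed here. In 31 of the 32 the probe set was among the brighter 50% and was tested, with Fgf21 below that limit. The 31 stand among 11685 tested genes.

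Each genotype was represented by 2 biological replicates, numbered 1 and 2, and each replicate by 1 Affymetrix array. Pairs of signals are given with replicate 1 first. The Sox17+/- fetuses carried 1 altered Sox17 allele, and both genotypes came from the strain C57BL/6, with heterozygous sires mated to females of that strain. Neither group was treated. The liver had been separated from the biliary system before RNA was extracted, and the labels state neither how many fetuses went into a replicate nor what change the altered allele carries, so p-values measure the spread between these samples. Sox17 encodes a transcription factor of endoderm, bile ducts and endothelium. Its signals were 139 and 124 in Sox17+/- liver, against 244 and 264 in wildtype liver. The hepatocyte marker Alb (albumin) had 42354 and 22768 in Sox17+/- liver, against 40785 and 23777 in wildtype liver, which fits the labelled tissue. Another hepatocyte marker, Tat, was dim, with 34.5 and 26.7 in Sox17+/- liver, against 92.9 and 27.5 in wildtype liver. Markers of adipocytes did not exceed 82.7, those of striated muscle 249.5 and those of biliary epithelium and gallbladder 229.8. Markers of pancreas and gut reached 1404.8, for Cela1, which had 1405 and 1028 in Sox17+/- liver, against 1142 and 994 in wildtype liver. The small number of arrays limits the precision of all values, and signals from bulk tissue cannot tell fewer cells of a type from less RNA per cell.

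Mitochondria burn long-chain fatty acids after a synthetase has joined them to coenzyme A and a carnitine shuttle has carried them across the inner membrane. There a dehydrogenase, a hydratase, a second dehydrogenase and a thiolase shorten the chain in repeated rounds, and electron transfer flavoprotein passes electrons to the respiratory chain. In liver the acetyl-CoA that results can be turned into ketone bodies for other organs. PPARalpha is a nuclear receptor that binds fatty acids, pairs with RXR and turns on many of these genes, most strongly in fasting. The fetus lives mainly on glucose, and the pathway is known to come into full use in liver around birth with the change to milk.

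PPARalpha with RXR binds a direct repeat of the hexamer AGGTCA with 1 base between the copies. The 250 bases before the RefSeq transcript start were searched on both strands for the hexamer and for the repeat, in build GRCm38.p6. RefSeq windows were found for 28 of the 34 genes, 30 windows in all. The hexamer was present in 5 of the 30 windows (16.7%), against 14.0% of all 32851 windows, so the share was close to that of promoters in general. No window of these genes held the repeat AGGTCANAGGTCA without mismatch, which 0.0335% of all windows did. With at most 1 mismatch, 1 of the 30 windows held it, that of Fabp1, against 0.484% of all windows, and 1 hexamer of Fabp1 lies inside that match. The 5 windows with a hexamer are printed because they hold the letters that PPARalpha is known to read. Capitals mark the hexamers in either orientation and, in Fabp1, the whole match to the repeat, which runs from 67 to 55 bases before the start.
Fabp1 (chr6:71199629-71199878, plus strand): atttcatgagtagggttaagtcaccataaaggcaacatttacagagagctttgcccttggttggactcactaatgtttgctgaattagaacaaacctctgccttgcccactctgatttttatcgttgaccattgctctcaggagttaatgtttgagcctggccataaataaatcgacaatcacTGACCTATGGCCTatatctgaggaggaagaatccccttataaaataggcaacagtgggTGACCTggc
Cpt1a (chr19:3323051-3323300, plus strand): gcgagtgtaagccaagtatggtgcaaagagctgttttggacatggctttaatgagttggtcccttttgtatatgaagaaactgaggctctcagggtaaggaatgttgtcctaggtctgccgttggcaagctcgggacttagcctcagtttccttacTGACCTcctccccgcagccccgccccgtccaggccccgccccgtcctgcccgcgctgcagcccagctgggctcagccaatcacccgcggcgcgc
Acadm (chr3:153944644-153944893, minus strand): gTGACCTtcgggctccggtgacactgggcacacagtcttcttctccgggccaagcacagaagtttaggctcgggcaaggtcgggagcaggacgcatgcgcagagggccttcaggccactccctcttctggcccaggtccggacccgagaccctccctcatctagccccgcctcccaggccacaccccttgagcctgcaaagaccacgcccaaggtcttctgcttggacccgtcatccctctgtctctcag
Acadvl (chr11:70015429-70015678, minus strand): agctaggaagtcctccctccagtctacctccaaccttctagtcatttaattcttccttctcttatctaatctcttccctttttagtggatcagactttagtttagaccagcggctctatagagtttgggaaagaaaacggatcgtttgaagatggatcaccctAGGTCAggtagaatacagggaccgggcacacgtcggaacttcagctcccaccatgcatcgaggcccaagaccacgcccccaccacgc
Echs1 (chr7:140116422-140116671, minus strand): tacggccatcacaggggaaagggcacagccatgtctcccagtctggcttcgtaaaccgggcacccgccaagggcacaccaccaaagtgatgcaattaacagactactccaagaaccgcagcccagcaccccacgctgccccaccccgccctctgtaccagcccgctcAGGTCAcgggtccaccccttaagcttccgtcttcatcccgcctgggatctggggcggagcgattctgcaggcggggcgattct

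In Fabp1 the match to the repeat, which has 1 mismatch, stands upstream of a stretch reading tataaa, and a further hexamer lies close to the start. Cpt1a, Acadvl and Echs1 each hold 1 hexamer within 100 bases of the start, and that of Acadm lies at the far end of its window. The log2 differences between genotypes of these 5 genes ran from -0.48 to -0.09, with a median of -0.29. Tested genes of the list whose windows lacked the hexamer, 21 of them, had a median of -0.33. A match of letters is a description and not a binding site, and a window without one says nothing about the receptor.

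Most genes of the list had lower signals in Sox17+/- liver, by small amounts, and none passed the test. The log2 difference, taken on log2(signal + 16) as Sox17+/- minus wildtype, was below 0 for 26 of 31 genes, against 54.2% of all tested genes. Their median was -0.23, and that of all tested genes -0.02. Both Sox17+/- arrays lay below both wildtype arrays for 7 genes of the 31, against 18.6% of all tested genes, and above both for 1, against 14.5%. A count of 7 in 31 is near that background. Taken within the same-numbered arrays, whose names in the labels share a code, 20 genes were lower in both pairs and 2 higher in both, against 32.2% and 25.5% of all tested genes. The median was -0.31 in the pair numbered 1 and -0.14 in the pair numbered 2.

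In the limma fit across 22519 probe sets, 0.00% were called at an adjusted p under 0.05, and none of the list was among them (adjusted p = 0.9999 for every gene of the list after Benjamini-Hochberg adjustment). Without adjustment 4.10% of all probe sets had a p under 0.05. With 1 brightest probe set per gene, 0 of the 31 genes did, against 2.54% lower and 1.61% higher among all tested genes. That count depended on the choice of probe set. Among the 53 tested probe sets of the list, dimmer ones of Ppara (higher), Slc25a20, Hadh and Decr1 (lower) had an unadjusted p under 0.05. By exact permutation the smallest two-sided p that 4 arrays in 2 equal groups allow is 0.333. Where a 95% interval is given for a gene, it comes from the same fit and gives the range of differences compatible with these arrays under that model.

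The size of the difference depended on wildtype replicate 1. That array had the highest of the 4 signals for 24 of the 31 genes, against 30.5% of all tested genes. Relative to each gene's mean over the 4 arrays, the median gene stood -0.03 on Sox17+/- replicate 1, -0.29 on Sox17+/- replicate 2, 0.35 on wildtype replicate 1 and -0.11 on wildtype replicate 2, on the log2 scale. Without wildtype replicate 1 the median difference was -0.0033, 16 of 31 genes were below 0, and 14 genes had the opposite sign. Both Sox17+/- arrays then lay below wildtype replicate 2 for 8 genes and above it for 7, against 36.1% and 30.3% of all tested genes. Without wildtype replicate 2 or Sox17+/- replicate 1 the median was -0.43 and -0.44, and without Sox17+/- replicate 2 it was -0.15. Leaving out 1 array also leaves the numbers 1 and 2 unequal between the genotypes, so these medians mix genotype with array number. The pair numbered 2 does not use wildtype replicate 1, and in it 22 of the 31 genes were below 0, against 52.5% of all tested genes. In the pair numbered 1 the count was 27, against 54.3%.

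**Figure D1:**
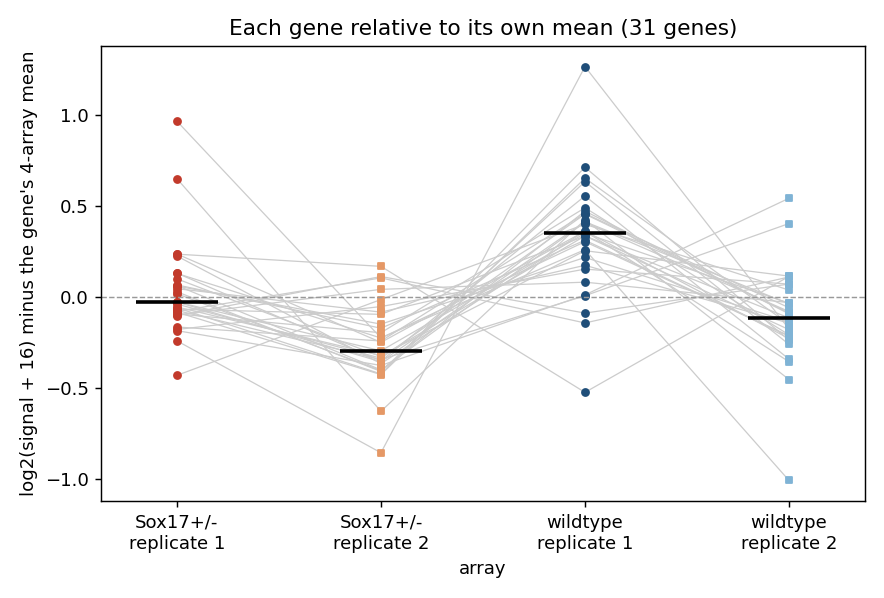
Each point is 1 of the 31 tested genes on 1 array, as log2(signal + 16) minus the mean of that gene over the 4 arrays. Grey lines join a gene across arrays and black bars mark medians. Wildtype replicate 1 is above 0 for 28 of the 31 genes, and Sox17+/- replicate 2 for 4.

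The arrays numbered 1 both lay above those numbered 2 for 20 of the 31 genes, against 22.0% of all tested genes. The 10 measured hepatocyte markers summed to 290593 and 169688 in Sox17+/- liver, against 293834 and 180053 in wildtype liver. Most of that sum came from secreted proteins with very high signals, and single markers departed from it in the pair numbered 1. Cps1, a urea cycle enzyme, had 5006 and 3920.2 in Sox17+/- liver, against 10850.0 and 4500.4 in wildtype liver, and Hnf4a, a hepatocyte transcription factor, had 2867 and 2687 in Sox17+/- liver, against 3924 and 2641 in wildtype liver, both highest on wildtype replicate 1, whereas Apob, the protein of secreted lipoproteins, had 5396 and 3429.9 in Sox17+/- liver, against 2747 and 4324 in wildtype liver and was lowest there. The 32 genes of the list summed to 127863 and 102111 in Sox17+/- liver, against 161494 and 112516 in wildtype liver. The 8 measured erythroid markers summed to 106141 and 104858 in Sox17+/- liver, against 98058 and 105487 in wildtype liver. The low sum on wildtype replicate 1 rested on 1 globin gene that was very low there. Without that gene the sum of the erythroid markers was not lowest on that array. That gene, Hbb-y, had 14228 and 23267 in Sox17+/- liver, against 4100 and 20232 in wildtype liver. Of the 8 markers, 2 were highest on wildtype replicate 1. The ratio of 3' to 5' signal for Actb, a sign of RNA integrity, was 1.43 and 1.20 in Sox17+/- liver, against 1.95 and 1.25 in wildtype liver, highest on wildtype replicate 1. The Actb 3' signal itself was 35014 and 24712 in Sox17+/- liver, against 11910 and 27202 in wildtype liver, lowest on that array. For Gapdh the ratio of 3' to 5' signal lay between 0.807 and 0.853. A list of 12 stress and low oxygen genes, chosen because earlier results of these data put them higher, summed to 70165 and 47719 in Sox17+/- liver, against 36211 and 31587 in wildtype liver. Egr1 and Slc2a1 of these overlapped between genotypes, with log2 differences of -0.004 and 0.33, and Slc2a1 had the highest signals of the 12. The part of RNA integrity, cell makeup or stress in the differences of the list was not tested.

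Ppara, which encodes the receptor itself, had signals of 819 and 605 in Sox17+/- liver, against 968 and 704 in wildtype liver. The groups overlapped, each array numbered 1 stood above each numbered 2, and the log2 difference was -0.22 (SE 0.27), with a 95% interval of -0.92 to 0.47 (limma). Its 3 probe sets disagreed in sign. The dimmest of them gave 504 and 492 in Sox17+/- liver, against 229 and 320.5 in wildtype liver, both Sox17+/- arrays above both wildtype arrays, with a log2 difference of 0.84 (SE 0.24). The remaining probe set gave a log2 difference of 0.16. No direction can therefore be given for the receptor gene. Ppargc1a encodes the coactivator PGC-1alpha, which drives the pathway in fasting. Its signals were 205 and 240.0 in Sox17+/- liver, against 207 and 233 in wildtype liver, nearly equal between genotypes in each pair, and 5 probe sets ran from -0.23 to 0.16 on the log2 scale.

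Genes of the carnitine shuttle were lower or level. Cpt1a encodes the outer membrane transferase that sets the rate of entry into mitochondria. It had signals of 597 and 555 in Sox17+/- liver, against 903 and 550.4 in wildtype liver. Wildtype replicate 1 stood alone, the other 3 arrays lay close together, and the log2 difference of -0.29 (SE 0.29) became 0.06 without it. Cpt2, the inner membrane transferase that frees carnitine again, had 899.8 and 1206 in Sox17+/- liver, against 1611 and 1251 in wildtype liver. All 4 values kept the genotypes apart, but Sox17+/- replicate 2 was only just below wildtype replicate 2, and the log2 difference of -0.44 (SE 0.26) was made of -0.83 in the pair numbered 1 and -0.05 in the pair numbered 2. A dimmer Cpt2 probe set, at 76.0 ± 12.8 in Sox17+/- and 136 ± 50.1 in wildtype (mean ± SD, n = 2 each), also kept the genotypes apart. Slc25a20, the carrier that swaps acylcarnitine for carnitine, had 1450.2 and 1177 in Sox17+/- liver, against 2049.7 and 1402 in wildtype liver. The values overlapped by a narrow margin on that probe set, with a log2 difference of -0.37 (SE 0.27). On its second probe set, at 657 and 524 in Sox17+/- against 1148 and 879 in wildtype, they did not overlap, and the log2 difference was -0.76. Crat, which moves acetyl groups onto carnitine, differed by 0.03, with 3 probe sets of unlike sign.

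**Figure D2:**
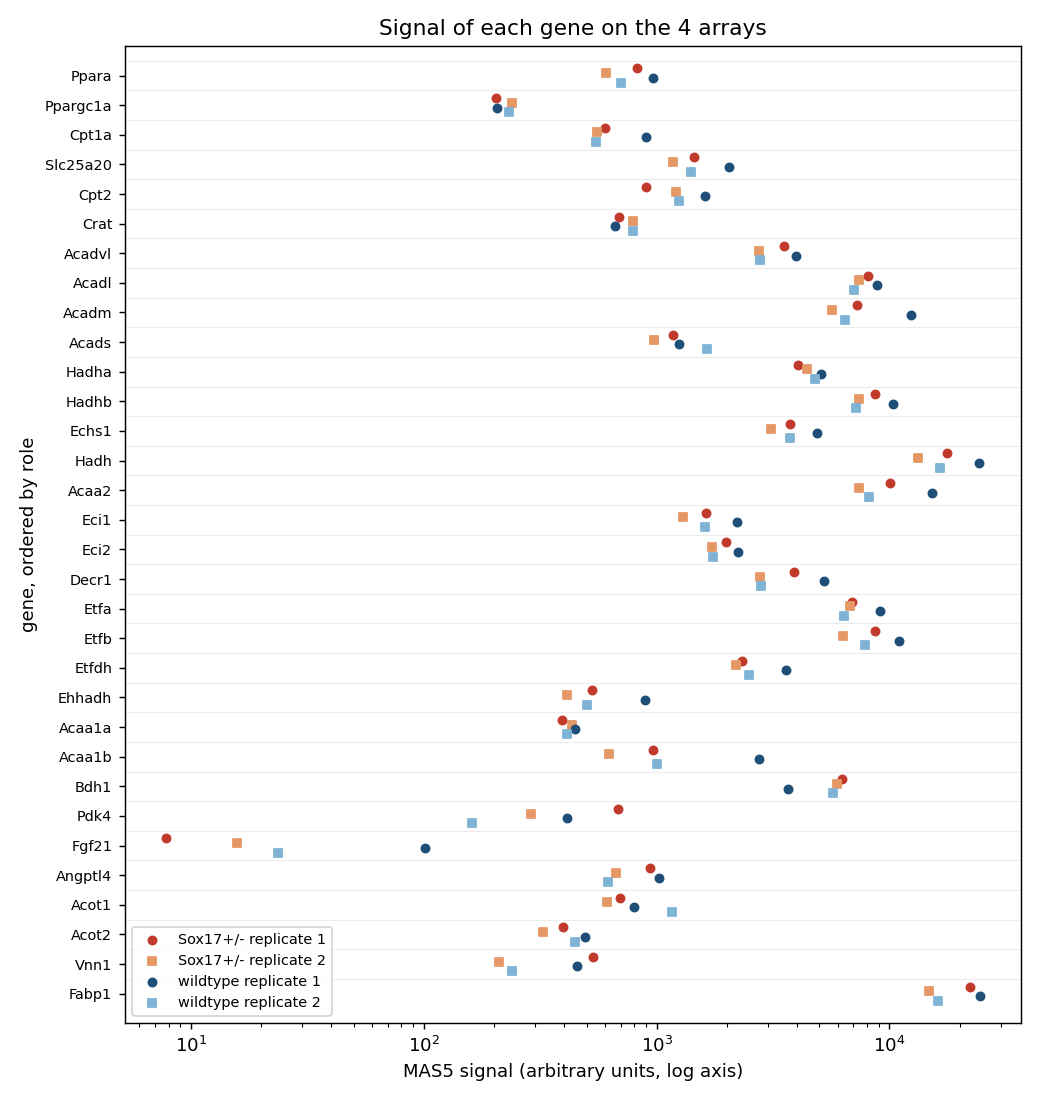
MAS5 signal of the 32 genes with a probe set of their own, on a log axis, with 1 point per array and genes ordered by role. Signals span from 7.78 for Fgf21 to 24433 for Fabp1, and wildtype replicate 1, the dark blue circle, is rightmost for most genes.

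The mitochondrial spiral itself took in 15 genes of dehydrogenases, hydration and thiolysis, unsaturated chains and electron transfer. All 15 had a log2 difference below 0, none past the test, from -0.48 to -0.03 with a median of -0.32. In 12 of them both pairs were lower, against 32.2% of all tested genes. In 3 both Sox17+/- arrays lay below both wildtype arrays, which is near the 18.6% of all tested genes. Wildtype replicate 1 was the highest array for 14 of the 15. Without it 8 of the 15 were below 0 and their median was -0.0033.

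Among the acyl-CoA dehydrogenases, which start each round on chains of a given length, the medium-chain and short-chain genes had the largest differences. Acadm (medium chain) had signals of 7271 and 5649 in Sox17+/- liver, against 12425 and 6423 in wildtype liver. Here the Sox17+/- values surrounded wildtype replicate 2, and wildtype replicate 1 was far above, so that the log2 difference of -0.48 (SE 0.37) became -0.0033 without it. Acads (short chain) had 1174 and 971 in Sox17+/- liver, against 1242 and 1640.4 in wildtype liver. This gene departed from the rest of the spiral in that wildtype replicate 2 was its highest array. The genotypes did not overlap, with a log2 difference of -0.41 (SE 0.24), made of -0.08 in the pair numbered 1 and -0.75 in the pair numbered 2. Acadvl (very long chain) and Acadl (long chain) differed by -0.09 and -0.03, and the sign of Acadl turned when arrays were centred on their medians.

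Hadha and Hadhb encode the 2 subunits of the trifunctional protein, which handles long chains. Hadha had signals of 4036 and 4405 in Sox17+/- liver, against 5082 and 4799 in wildtype liver, a narrow separation of the genotypes with a log2 difference of -0.23 (SE 0.20) and a 95% interval of -0.74 to 0.28 (limma). Hadhb had 8699.8 and 7374 in Sox17+/- liver, against 10314 and 7162 in wildtype liver and a log2 difference of -0.10, so the separation seen for its partner was not seen there. Echs1, the short-chain hydratase, had 3748 and 3109 in Sox17+/- liver, against 4872 and 3730.2 in wildtype liver, with the Sox17+/- array of replicate 1 just above wildtype replicate 2. Hadh, the short-chain hydroxyacyl dehydrogenase, had 17708 and 13211 in Sox17+/- liver, against 24257 and 16404 in wildtype liver, which overlapped. Its 2 other probe sets did not overlap between genotypes, with log2 differences of -0.59 and -1.57, the second of these on a far dimmer probe set. Acaa2, the mitochondrial thiolase, had 10012 and 7389 in Sox17+/- liver, against 15234 and 8192 in wildtype liver, and its 3 probe sets gave -0.38, -0.39 and -0.15 in order of brightness.

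Eci1 and Eci2 encode isomerases and Decr1 a reductase that let unsaturated chains enter the spiral. Eci1 had signals of 1631 and 1296 in Sox17+/- liver, against 2219 and 1619.6 in wildtype liver, and its log2 difference was -0.38 (SE 0.26). The others differed by -0.09 for Eci2 and -0.22 for Decr1, and in both the arrays numbered 2 were nearly equal, with pair differences of -0.01 and -0.01. On a dimmer Decr1 probe set the genotypes did not overlap, with 364 and 307 in Sox17+/- liver, against 622 and 453 in wildtype liver. Its log2 difference was -0.64, and -0.54 in the pair numbered 2. Etfdh, the dehydrogenase that hands electrons from the flavoprotein to ubiquinone, had 2319 and 2198 in Sox17+/- liver, against 3580.1 and 2497 in wildtype liver. Its Sox17+/- arrays lay close together below both wildtype arrays, with a log2 difference of -0.40 (SE 0.25) and a 95% interval of -1.04 to 0.24 (limma). For Etfa and Etfb, the subunits of the flavoprotein, the log2 differences were -0.16 and -0.33, and the genotypes overlapped in both.

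**Figure D3:**
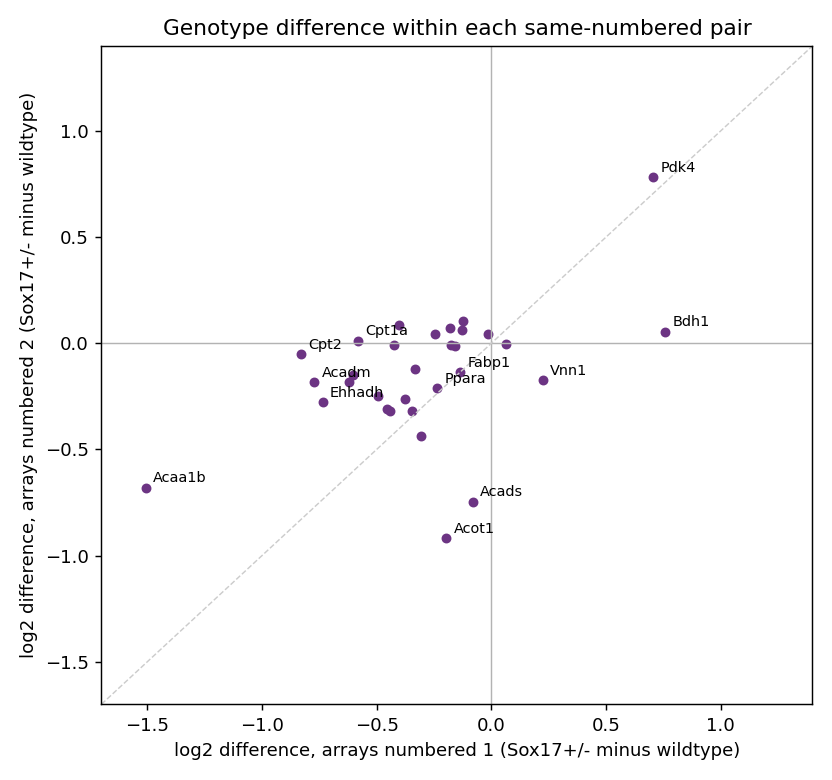
Log2 difference (Sox17+/- minus wildtype) within the arrays numbered 1 on the horizontal axis and within those numbered 2 on the vertical axis, 1 point per tested gene, with the dashed line marking equality. Acaa1b is lowest in pair 1, Acot1 in pair 2, and Pdk4 is the gene with nearly equal positive values in both.

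Peroxisomes shorten very long chains and have their own enzymes, several of them classical PPARalpha targets in mouse. Acaa1b, a peroxisomal thiolase, had the largest difference of the 31 genes. Its signals were 960.3 and 622 in Sox17+/- liver, against 2757 and 1005 in wildtype liver. Both Sox17+/- arrays lay below both wildtype arrays, and the log2 differences were -1.51 in the pair numbered 1 and -0.68 in the pair numbered 2. Over all arrays it was -1.09 (SE 0.52), which corresponds to 2.13-fold lower, with a 95% interval of -2.42 to 0.23 (limma). Without wildtype replicate 1 it was -0.37. Its close paralogue Acaa1a had 392 and 435 in Sox17+/- liver, against 447 and 413 in wildtype liver and a log2 difference of -0.05. A further 2 probe sets name both thiolases and were not used, and how far either gene's probes take up RNA of the other was not tested. Ehhadh, the peroxisomal bifunctional enzyme, had 529 and 414 in Sox17+/- liver, against 891 and 504 in wildtype liver. Its genotypes overlapped by a small margin, the pair differences were -0.74 in the pair numbered 1 and -0.28 in the pair numbered 2, and the log2 difference was -0.51 (SE 0.33).

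Bdh1 and Pdk4 went the other way. Bdh1, the mitochondrial dehydrogenase that interconverts the ketone bodies acetoacetate and hydroxybutyrate, had signals of 6222 and 5939 in Sox17+/- liver, against 3670.0 and 5716 in wildtype liver. It was the 1 gene of the list with both Sox17+/- arrays above both wildtype arrays, but 3 arrays lay close together and wildtype replicate 1 was low. The log2 difference was 0.41 (SE 0.28), made of 0.76 in the pair numbered 1 and 0.05 in the pair numbered 2, and a dimmer probe set gave 0.18. Pdk4 encodes a kinase that shuts off pyruvate dehydrogenase and so spares glucose, and it is induced by PPARalpha in fasting. Its signals were 679 and 289 in Sox17+/- liver, against 410.4 and 161 in wildtype liver. Each Sox17+/- array was above the wildtype array of its number by a like amount, 0.71 in the pair numbered 1 and 0.78 in the pair numbered 2, while the arrays numbered 1 were far above those numbered 2 in both genotypes, so that the groups overlapped. The log2 difference was 0.74 (SE 0.57), or 1.67-fold, with a 95% interval of -0.70 to 2.19 (limma). With the array number as a replicate block, its adjusted p in limma was 0.625.

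The further PPARalpha targets did not share a direction. Acot1 and Acot2, the cytosolic and mitochondrial thioesterases that free fatty acids from coenzyme A, were lower on their brightest probe sets. Acot1 had signals of 698 and 609 in Sox17+/- liver, against 802 and 1165 in wildtype liver, with wildtype replicate 2 highest and a log2 difference of -0.56 (SE 0.26), or -0.82 without wildtype replicate 1. Acot2 had 396 and 326 in Sox17+/- liver, against 494 and 447 in wildtype liver, a separation of the genotypes of similar size in both pairs, -0.31 in the pair numbered 1 and -0.44 in the pair numbered 2. A dimmer Acot2 probe set, not tested, went the other way, with a log2 difference of 0.56. It had 104 and 107 in Sox17+/- liver, against 41.7 and 102 in wildtype liver, so the direction of Acot2 depended on the probe set. A probe set that names both thioesterases was not used. Angptl4, a secreted inhibitor of lipoprotein lipase, differed by -0.01 and Vnn1, a pantetheinase of hepatocytes, by 0.03, and both differed more between array numbers than between genotypes, as for Vnn1 with 533 and 210.3 in Sox17+/- liver, against 453 and 239 in wildtype liver. Fabp1, the fatty acid binding protein of liver whose window above holds the repeat with 1 mismatch, had 22217 and 14746 in Sox17+/- liver, against 24433 and 16219.8 in wildtype liver. Its difference of -0.14 was the same in both pairs and had a 95% interval of -0.96 to 0.68 (limma). Fgf21, a hormone that liver secretes under PPARalpha in fasting, was too dim by its mean to be tested. It had 7.78 and 15.7 in Sox17+/- liver, against 101 and 23.6 in wildtype liver. Only the value on wildtype replicate 1 was above the median signal of its array, 84.7 there.

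**Figure D4:**
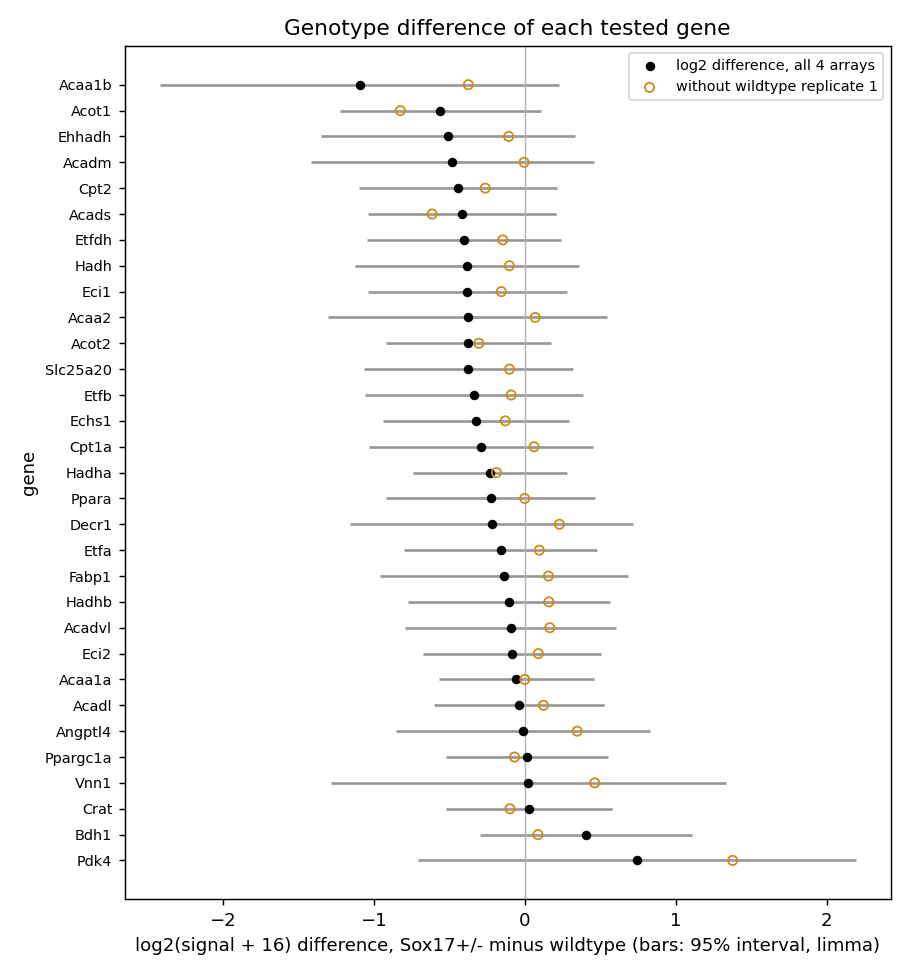
Log2 difference (Sox17+/- minus wildtype) of the 31 tested genes with 95% intervals from limma, ordered from lowest to highest. Filled points use all 4 arrays and open points leave out wildtype replicate 1. All 31 intervals include 0, and the open points lie on both sides of 0, with 16 below it.

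Of 14 genes with more than 1 tested probe set, 5 had probe sets of unlike sign, namely Ppara, Ppargc1a, Cpt1a, Crat and Acaa1a. By brightness, the 10 genes of the list with a mean signal of 4000 or more had a median difference of -0.19, against 0.01 for all 1164 tested genes that bright. The 10 genes from 1000 to 4000 had -0.38, against -0.004 for 3089 genes, and the 11 dimmer ones -0.05, against -0.04 for 7432 genes. With each array centred on its median, 3 genes of the list in place of 7 had both Sox17+/- arrays below both wildtype arrays, and the median was -0.18. The share of all tested genes after centring is not given, so that count has no background beside it.

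A wider set of 81 genes of the same pathways was examined in the same way, 73 with a probe set of their own and 66 tested. Of the 66, 43 had a log2 difference below 0 and the median was -0.17. Both Sox17+/- arrays lay below both wildtype arrays for 23 and above both for 8, against the 18.6% and 14.5% of all tested genes given above. None passed limma after adjustment. At an unadjusted p under 0.05, 4 were lower and 1 higher, against 2.54% and 1.61% of all tested genes. Wildtype replicate 1 was the highest array for 33 of the 66. Without it both Sox17+/- arrays lay below wildtype replicate 2 for 24 and above it for 19, near the 36.1% and 30.3% of all tested genes, and the median was -0.04.

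Hacl1, a peroxisomal lyase of branched chains named here after its values were seen, had a difference of -0.87 but overlapped, with 548 and 237 in Sox17+/- liver, against 828 and 545 in wildtype liver. The 5 genes with the largest lower difference among the tested ones without overlap follow. Slc27a1, a fatty acid transporter, had signals of 26.1 and 99.5 in Sox17+/- liver, against 175 and 162 in wildtype liver, dim throughout, with a log2 difference of -1.40 (SE 0.49). Acot3, a peroxisomal thioesterase related to Acot1, had 192 and 277 in Sox17+/- liver, against 358 and 513 in wildtype liver. Amacr, the racemase needed for branched chains, had 844 and 808 in Sox17+/- liver, against 1677 and 1156 in wildtype liver, and its Sox17+/- arrays were nearly equal. Bbox1, which makes the last step of carnitine synthesis, had 435 and 458 in Sox17+/- liver, against 769 and 674 in wildtype liver and a log2 difference of -0.67 (SE 0.20). Pecr, a peroxisomal reductase, had 2013 and 1786 in Sox17+/- liver, against 3698 and 2465 in wildtype liver.

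On the higher side, by the same rule, Pdk2, a sister kinase of Pdk4 with the same target, had signals of 416 and 405 in Sox17+/- liver, against 248 and 297 in wildtype liver, a clear separation with a log2 difference of 0.57 (SE 0.21). Ppard, the PPAR of many tissues, had 233 and 234 in Sox17+/- liver, against 143 and 187 in wildtype liver. Slc16a6, which exports ketone bodies from hepatocytes in zebrafish, had 1484 and 1011 in Sox17+/- liver, against 959 and 863 in wildtype liver. Lpin2, a phosphatidate phosphatase, and Acsl4, an acyl-CoA synthetase, followed. Lpin2 had 3207 and 2813 in Sox17+/- liver, against 2731 and 2056 in wildtype liver, and Acsl4 had 1814 and 1881 in Sox17+/- liver, against 1562 and 1454 in wildtype liver.

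**Figure D5:**
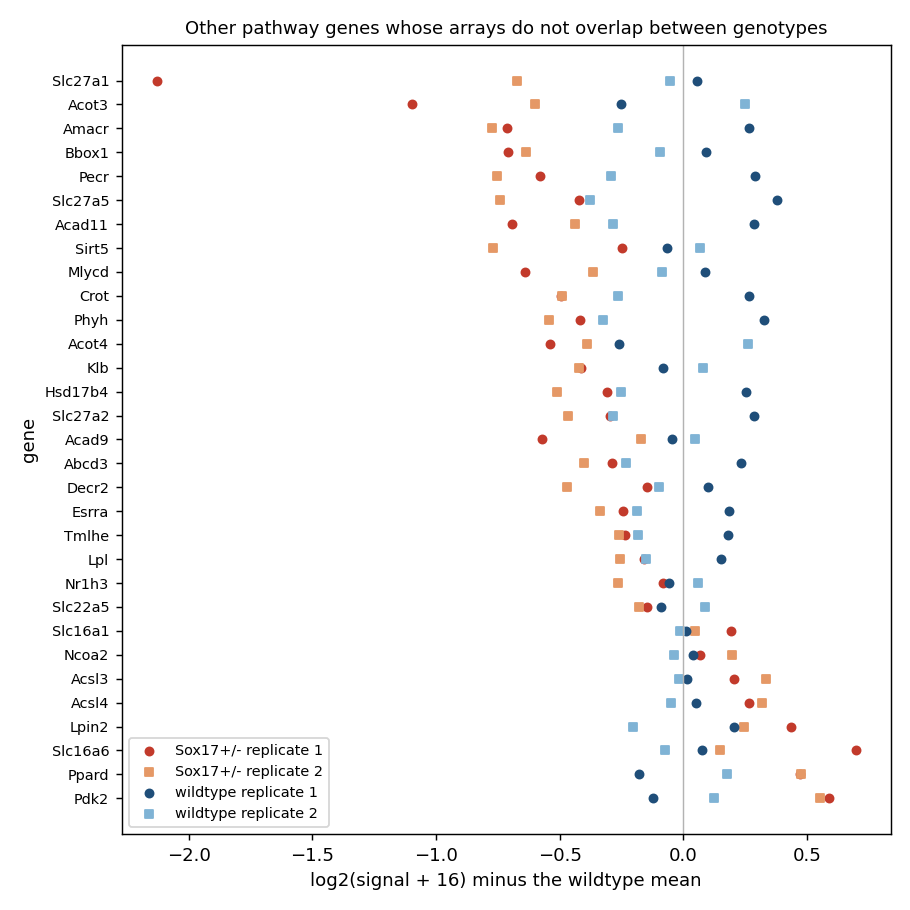
Log2(signal + 16) minus the wildtype mean for the 31 genes of the wider set whose arrays did not overlap between genotypes, 4 points per gene. The 23 at the top have both Sox17+/- arrays to the left of both wildtype arrays and the 8 at the bottom have them to the right.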

How the data were processed

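Total RNA was measured on 4 single-colour arrays. The deposited intensity values are probe set signals on a linear scale and, per the submitters' processing notes, come from MAS5. On each array their mean after the lowest and highest 2% were trimmed was 500, which removes any difference in total RNA and leaves dim signals noisy. The 64 control probe sets were set aside, and genes were named through the platform annotation. The mean and SD of a gene are on the linear scale.

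From these values log2(signal + 16) was computed. The brighter 50% of probe sets by mean log2 value entered a linear model of genotype alone in limma 3.58.1 (R 4.3.3, moderated two-sided test). Benjamini-Hochberg adjustment ran over all 22519, and calls needed an adjusted p under 0.05. There were 2 residual and 3.24 prior degrees of freedom. The code was tested on simulated data.

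The genes of the list, the wider set and the marker lists were chosen with earlier results of these data known. Signals on every array are given for Ppara, Ppargc1a, Cpt1a, Bdh1, all genes of the list that did not overlap and examples of each role, and for the 5 genes per direction of the wider set with the largest difference among those that did not overlap. Alternatives were another pseudocount (1 or 64), filter or normalization, the array number as a block, another prior, all probe sets of a gene and each array left out.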

Additional observations from a re-analysis of the deposited data

How the results depend on the processing

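No gene of the list passed limma after adjustment under the other pseudocounts, filters, normalizations and prior, with the replicate block or with 1 array left out (the prior was tried on single genes after the data were seen). The mean over a gene's probe sets was not tested. The number of probe sets called was 0 with all arrays, 5 after median centring and 3 with a trended and robust prior, and 0 under every other alternative. The median difference of the list, -0.23, lay between -0.30 (brighter 25% of probe sets, 26 genes) and -0.18 (median centring) under the other pseudocounts, filters, normalizations and probe set rule. With 1 array left out it ran from -0.44 to -0.0033. Genes of the list below 0 numbered 16 to 27 with 1 array left out (26 with all; this count was added after the data were seen), 16 being without wildtype replicate 1. Genes lower without overlap, 7 with all arrays, were 3 after median centring and 8 to 26 with 1 array left out, where fewer arrays overlap more rarely. Those higher without overlap, 1 with all arrays, were 2 to 7 with 1 array left out and 2 where each gene took the mean of its probe sets. Without wildtype replicate 1 the list had 8 lower and 7 higher, against 36.1% and 30.3% of all tested genes. For the other alternatives the share of all tested genes is not given, so their counts have no background beside them and are not read as a result. Signs turned for 14 genes without wildtype replicate 1, for 9 without Sox17+/- replicate 2, for 2 after median centring (Acadl and Angptl4) and for 3 with all probe sets averaged (Ppara, Ppargc1a and Crat), and the cause was not tested. Deviations from the genotype mean correlated between arrays of the same number (r = 0.383 over 22519 probe sets). With the array number as a replicate block, 2 genes of the list, Acaa1b and Pdk4, had an unadjusted p under 0.05 in limma (lowest adjusted p = 0.625), the median stayed at -0.23, and 0 probe sets were called, with 1693 at an unadjusted p under 0.05 in place of 923. Without wildtype replicate 2 the lowest adjusted p of the list was 0.253, for Acaa1b. The low number of arrays and the shared direction of wildtype replicate 1 limit every value here.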

Other observations

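Some lipid droplet and lipid handling genes of the wider set, chosen here after their values were seen, are given as values. Plin5, a droplet coat protein that ties droplets to mitochondria, had signals of 614 and 297 in Sox17+/- liver, against 1319.6 and 248 in wildtype liver, with wildtype replicate 1 highest. G0s2, an inhibitor of the lipase ATGL, had 3277 and 2152 in Sox17+/- liver, against 5318 and 2016 in wildtype liver, again highest on wildtype replicate 1. Plin2, the main droplet coat protein of liver and a PPARalpha target, had 6537 and 5812 in Sox17+/- liver, against 5358 and 5878 in wildtype liver, which overlapped. Creb3l3, a factor that acts with PPARalpha on Fgf21, had 1643 and 745 in Sox17+/- liver, against 1662 and 1075 in wildtype liver, and Klb, a coreceptor for that hormone, had 899 and 893 in Sox17+/- liver, against 1135 and 1271 in wildtype liver, with both Sox17+/- arrays below both wildtype arrays. Lpl, lipoprotein lipase, had 12363 and 11553 in Sox17+/- liver, against 15341 and 12424 in wildtype liver, also without overlap on the lower side. Cidec, a droplet protein too dim to be tested, had 50.01 and 45.0 in Sox17+/- liver, against 11.1 and 5.56 in wildtype liver, both Sox17+/- arrays above both wildtype arrays. Lpin1, a target of PGC-1alpha, had 2674 and 1709.6 in Sox17+/- liver, against 2469.7 and 905 in wildtype liver, and its wildtype arrays differed by more than the genotypes did.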
